A study of Macaca mulatta with 252 samples.

Results

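MET is the receptor of hepatocyte growth factor, and its transcript is described here across the neocortex, hippocampus and lateral geniculate nucleus (LGN) of adult rhesus macaques. It is 1 of 14133 genes that the arrays represent under a single symbol, and it was chosen by its layer and area differences in earlier results from these same arrays, where it was high in layer 3 and low in layer 6, high in TE and MT and low in ACG and DLPFC. Its levels by layer and by area are therefore given as a description, with no test. The tests concern contrasts that the choice did not use. These are the areas' differences in laminar profile, the layers of V1, the hippocampal fields, the large structures and the sexes. The first of them uses the same arrays as the choice, and is not free of it where levels are too low to fall further. The comparisons of V1 layers, structures and sexes also share part of their cortical arrays with the choice.

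The receptor is a membrane tyrosine kinase. Its ligand HGF is secreted as an inactive chain that serine proteases such as matriptase (ST14) cleave, while Kunitz-type inhibitors such as SPINT2 restrain those proteases. The activated receptor recruits GRB2 and GAB family adaptors, signals through PI3 kinase, RAS-MAP kinase and RAC, and is removed by CBL ubiquitin ligases and endocytosis. In the forebrain it is known from excitatory projection neurons, where it takes part in the growth of dendrites and the maturation of synapses, and the human gene has been studied as an autism risk gene.

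The study asked how gene expression is laid out over layers and areas of the primate cortex. Small pieces of tissue were captured and their RNA was amplified and hybridised, 1 array per piece and animal. There were 225 experimental arrays in 57 region groups, 54 groups with 4 arrays and 3 with 3 arrays, which were A1 layer 4, A1 layer 5 and M1 layer 2. The groups comprised 50 cortical layers, the hippocampal fields CA1, CA2, CA3 and dentate gyrus (DG), and the magnocellular, parvocellular and koniocellular LGN. The cortex was sampled from front to back: dorsolateral prefrontal cortex (DLPFC), orbitofrontal cortex (OFC) and the anterior cingulate gyrus (ACG), then primary motor cortex (M1), primary somatosensory cortex (S1) and primary auditory cortex (A1), and then the visual areas V1 and V2, the area MT of the middle temporal region and the temporal area TE. Layer 4 was collected whole in DLPFC, S1, A1, V2, MT and TE and as 4A, 4B, 4Ca and 4Cb in V1, and ACG, OFC and M1 had no layer 4 group. The tissue was from 6 adult animals, for which the labels name no treatment and no genotype. The females are called D, E and F here and the males A, B and C, and 36 of the 57 groups had arrays from all of males A and C and females D and E. Each array of a group came from a different animal.

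Values are log2 intensities, so a difference of 1 is a doubling, and errors are SDs over animals unless SE is written. In captured tissue, fewer cells that make a transcript and less transcript per cell cannot be told apart. The labelled regions carried their markers: CUX2 was highest in layer 2 groups (10.10 in V1), TCF7L2 in the LGN (12.73 in the koniocellular division) and PROX1 in DG (10.16). The area labels were less well borne out in M1 and DLPFC. When each cortical array was set against the other animals' mean of every area at the same layer, 108 of 158 arrays were nearest to their own area, but 0 of 4 arrays labelled M1 from male A were, and all 4 lay nearest to S1. The DLPFC arrays of male B also had 0 of 4 nearest to their own area. MET was read with and without the M1 arrays of male A, the DLPFC arrays of male B and the S1 arrays of male C, whose MET level stood apart. The labels do not tie arrays to the amplification batches that the study design names. The spread of the arrays' Cre hybridisation control probes split the areas into a narrow set (TE, V1, ACG and the primary motor, somatosensory and auditory areas) and a wide set (the others), and comparisons between areas are also given within each set.

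MET had 5 probe sets with its symbol alone. The brightest, MmuSTS.2989.1.S1_at, had a mean of 6.37 and its group means spanned 6.69, and it stands for MET below. On it, 155 of 225 arrays lay above 4.80, the median of all probe sets. The other probe sets were dim, with means of 3.44 to 4.36, and at most 27 of 225 arrays above that median. MmugDNA.34584.1.S1_at followed the bright probe set over the 57 group means (r = 0.85, the same arrays behind both axes), was likewise highest in V1 layer 4Cb (5.84) and spanned 2.74. The remaining r values were 0.79, 0.40 and 0.22, with spans of 1.04 to 1.33.

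The group means of MET ran from 3.58 to 10.27. The highest group was V1 layer 4Cb, with 9.79 in male C, 10.05 in male A, 10.59 in female E and 10.65 in female D (mean 10.27 ± 0.42, n = 4). V1 layer 4Ca followed at 10.10 ± 0.12, then TE layer 3 at 9.70 ± 0.48, hippocampal CA1 at 9.56 ± 0.21, MT layer 3 at 9.54 ± 0.26, V1 layer 4B at 9.44 ± 0.62 and V2 layer 3 at 9.36 ± 0.41. Sensory and temporal cortex therefore shared the top of the order with 1 hippocampal field. The lowest groups were the magnocellular LGN (3.58 ± 0.06), ACG layer 6 (3.62 ± 0.52), the parvocellular LGN (3.68 ± 0.06), ACG layer 2 (3.75 ± 0.57), DG (3.78 ± 0.15), the koniocellular LGN (3.79 ± 0.12) and OFC layer 6 (3.79 ± 0.23). In 27 groups every array lay above the median of all probe sets, and in 9 groups none did. In 0 of 56 neighbouring pairs of groups was the gap larger than the larger SD of the pair, so the place of neighbours in this order is not settled. Single arrays ranged from 2.94 (ACG layer 6, male A) to 10.65.

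**Figure D1:**
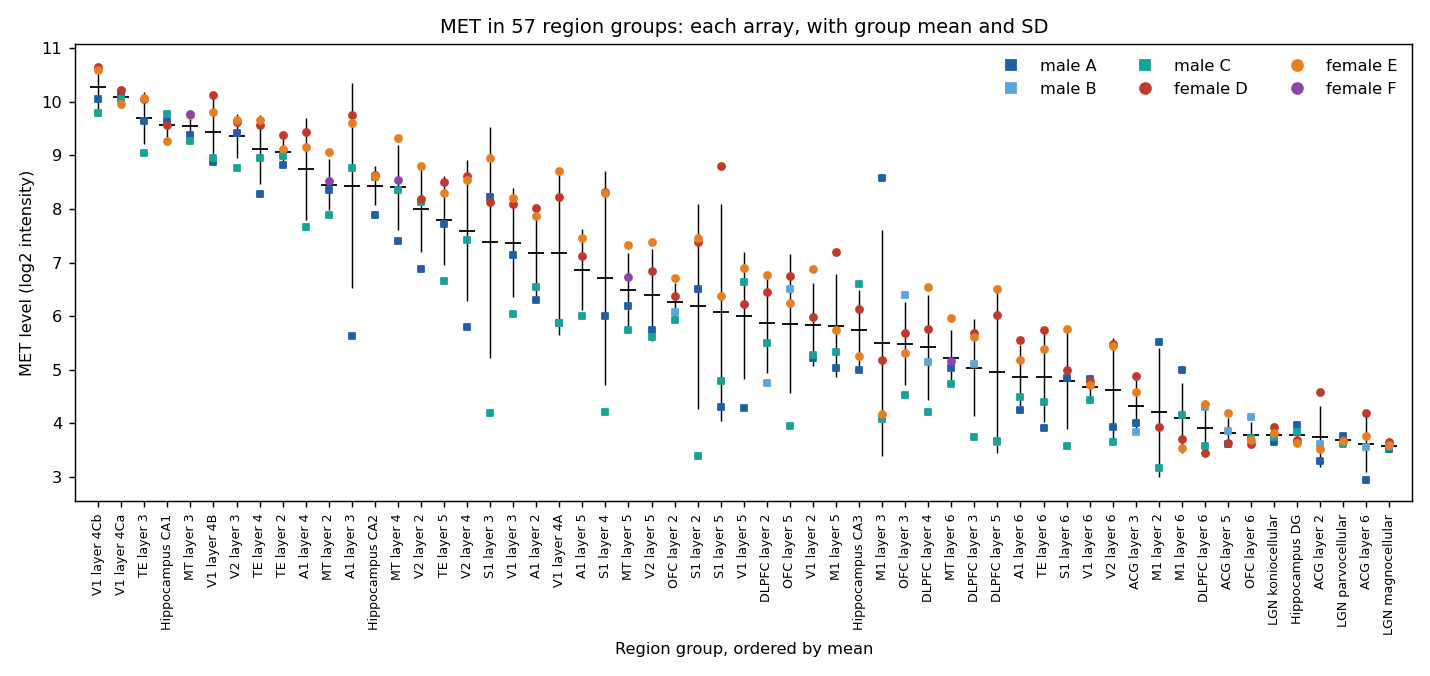
Each point is the MET level (log2 intensity) on 1 array, coloured by animal (squares male, circles female), for the 57 region groups ordered by mean; dashes and bars are the group mean and SD. Group means run from 10.27 in V1 layer 4Cb to 3.58 in the magnocellular LGN with neighbouring means closer than the larger SD of the pair, and single arrays of male A in M1 layer 3 and male C in S1 lie far from their groups.

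Across the 6 areas with an undivided layer 4, MET was highest in layer 3 and lowest in layer 6. Female E and male C entered with all 6 areas, female D without MT, and male A with S1, V2, MT and TE only. After the areas' own means were removed, layer 3 had 8.17 in female D, 8.23 in male C, 8.28 in female E and 9.35 in male A. Layer 6 had 4.57, 5.01, 4.69 and 4.61 in the same order, so the layers did not overlap. Layer 2 (7.60 ± 0.18) and layer 4 (7.65 ± 0.41) were close to each other, and layer 5 (6.52 ± 0.35) lay between them and layer 6. Layer 3 exceeded layer 6 by 3.79 ± 0.66 on the log2 scale, a 13.8-fold difference, in 4 of 4 animals. The step from layer 5 to layer 6 was 1.80 ± 0.47, and layer 3 exceeded layer 4 by 0.86 ± 0.96, in 4 of 4 animals, from 0.31 to 2.29, a gap smaller than its SD.

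Single animals and areas mostly kept that order. Among 38 animal and area combinations with layers 2, 3, 5 and 6, layer 3 was highest in 25, layer 5 in 8, layer 2 in 5 and layer 6 in 0, and layer 6 was lowest in 31. In TE, MT and V2 layer 3 led in 4 of 4 animals, and in A1 in 3 of 3. Male A had no A1 layer 5 array and was not counted there. Its A1 layer 2 (6.31) lay above its A1 layer 3 (5.63). OFC had layer 3 on top in 0 of 4 animals, with layer 2 highest in 2 and layer 5 in 2, and in DLPFC layer 2 led in 3 of 4. Of the variance of MET over the 158 cortical arrays of these layers, area accounted for 39%, layer for 28.0%, their combination for 12.1% and animal for 7.35%, which leaves 13.5%. The sources were entered in that order. The shares depend on it, because not every animal was sampled in every area.

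**Figure D2:**
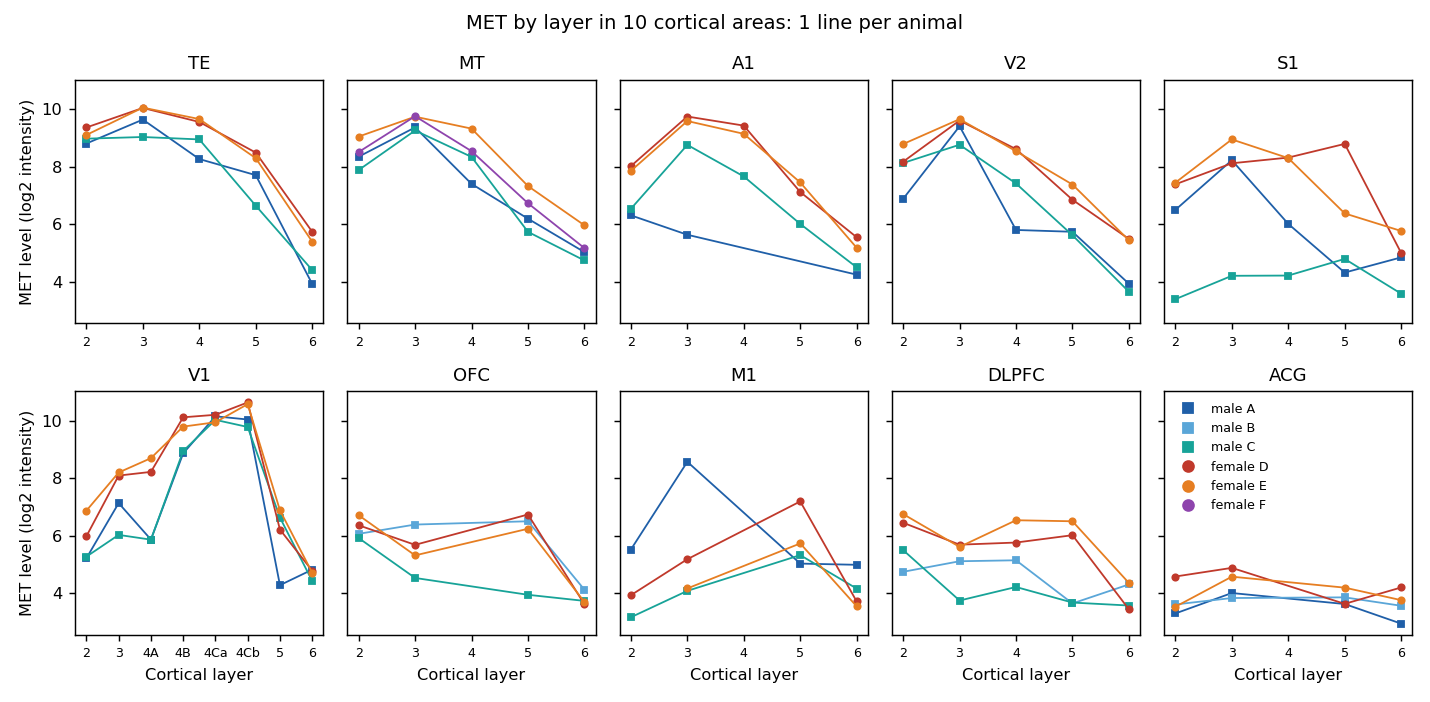
MET level (log2 intensity) by cortical layer in each of 10 areas, 1 line per animal. The mean profile was highest in layer 3 and lowest in layer 6 in TE, MT and V2, highest from layer 4B to 4Cb in V1, and low in every layer of ACG; male A in M1 and A1 and male C in S1 depart from the other animals.

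Markers of other cells moved across the layers too. Over the same areas the inhibitory neuron markers measured (4 of 6 listed) averaged 9.16 in layer 3, 9.40 in layer 4 and 8.04 in layer 6. Members of that list did not move alike. Over the 57 groups GAD2 was highest in M1 layer 6 (7.64) and VIP in S1 layer 2 (10.20). GAD1 was highest in MT layer 2 (12.57) and PVALB in the parvocellular LGN (12.74). The oligodendrocyte markers (2 of 5) averaged 8.39 in layer 2 and 11.21 in layer 6. The excitatory neuron markers (3 of 5) ran from 7.56 in layer 2 to 9.11 in layer 5. Astrocyte markers (2 of 4) stayed between 10.49 and 11.02. Over the 57 group means MET correlated with these lists at r = 0.44 (inhibitory neurons), -0.12 (oligodendrocytes), 0.06 (excitatory neurons) and -0.50 (astrocytes). Over the 50 cortical groups alone the values were 0.60, -0.06, -0.48 and -0.49 in the same order. In both cases the points share arrays, animals and batches, and the lists' part in the MET profile was not tested. Among the markers of these lists NEUROD6 alone had cortical group means under the median of all probe sets, the lowest being 3.91.

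By area, MET was highest in TE and lowest in ACG. Averaged over layers 2, 3, 5 and 6, TE had 7.27 in male C, 7.52 in male A, 8.22 in female E and 8.41 in female D. ACG had 3.47 in male A, 3.72 in male B, 4.02 in female E and 4.32 in female D. The ranges of these areas lay far apart, and in the 3 animals with both, TE exceeded ACG by 4.12 ± 0.08. Since all ACG group means were under the median of all probe sets, differences against ACG are lower bounds.

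Between these ends came MT (7.43 ± 0.48), A1 (7.20 ± 0.65, n = 3), V2 (7.10 ± 0.68), S1 (6.11 ± 1.53), V1 (5.98 ± 0.60), OFC (5.35 ± 0.56), M1 (5.07 ± 0.93, n = 3) and DLPFC (4.95 ± 0.79). Neighbours in this order did not differ beyond the larger SD of the pair, except that V1 exceeded OFC and DLPFC exceeded ACG by more than it. Within animals some pairs were steadier: V2 exceeded V1 by 1.12 ± 0.13 in 4 of 4 animals, TE exceeded A1 by 0.77 ± 0.07 in 3 of 3, and OFC exceeded ACG by 1.61 ± 0.40 in 3 of 3. Male A, which had no A1 layer 5 array, is outside the A1 mean and the pair of TE and A1. Its A1 arrays had 6.31 in layer 2, 5.63 in layer 3 and 4.24 in layer 6. Its TE arrays had 8.81, 9.65 and 3.92 in these layers, so its gap was not steady. S1 was split, with 7.33 in female D, 7.14 in female E and 5.97 in male A against 3.99 in male C. M1 was split as well, with 6.03 in male A against 5.01 in female D and 4.18 in male C. The V1 mean leaves out layer 4, where MET was highest.

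Neighbouring areas could lie in different control sets. Within the narrow set the order was TE, A1, S1, V1, M1, ACG, and within the wide set it was MT, V2, OFC, DLPFC, so high and low areas occurred in both. Poly-A control probes read higher on the arrays of V1 (9.99 ± 0.57) and V2 (9.83 ± 0.67) than elsewhere (8.47 to 9.33), and their part in the area levels was not tested. Inhibitory neuron markers were lowest in ACG (8.0) and highest in S1 (9.08), and astrocyte markers were highest in ACG (11.33) and lowest in V2 (10.60). Excitatory neuron markers were highest in ACG, where MET was lowest, followed by M1 (8.86), and were lowest in V1 (8.20). Oligodendrocyte markers ran from 8.77 in ACG to 10.81 in M1. Whether these lists bear on the MET levels was not tested.

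The areas differed in how far MET fell from upper to deep layers. The mean of layers 5 and 6 minus that of layers 2 and 3 was -3.17 in V2, -3.14 in MT, -3.06 in TE and -2.45 in A1, but -1.05 in OFC, -1.01 in DLPFC, -0.32 in ACG and -0.01 in M1. This difference varied between areas by more than the spread between animals (limma, moderated F, fitted range 3.20, adjusted p = 0.000125). Of 10194 genes tested, 2.7% were called for such a difference, a call being an adjusted p under 0.05 with a range of at least 1. The call held within the narrow set (range 3.02, limma adjusted p = 0.0110) and within the wide set (range 2.07, limma adjusted p = 0.00298). Each set held an area chosen as high and an area chosen as low, TE with ACG and MT with DLPFC. These fits are therefore not free of the choice either.

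In V2 the difference was -2.73 in female D, -2.82 in female E, -3.32 in male A and -3.82 in male C. MT lay between -3.34 and -2.75 and TE between -3.49 and -2.59, so the values of V2, MT and TE overlapped. In ACG the values were -0.82 in female D, -0.37 in male A, -0.08 in female E and -0.01 in male B, none of which reached the V2, MT, TE or A1 values. ACG was low in every layer, with group means of 3.62 to 4.33, all under the median of all probe sets. Its low level was among the reasons for choosing MET and leaves little room for a drop, so the ACG difference is a description. Without ACG and DLPFC, the areas chosen as low, the range over areas was 3.18 (limma adjusted p = 0.00270). TE and MT, chosen as high, stayed in that fit. Groups outside ACG also had means under the median of all probe sets. Among them were M1 layer 2 (4.21), M1 layer 6 (4.10), OFC layer 6 (3.79) and DLPFC layer 6 (3.92). Layer 6 of V2 (4.62), V1 (4.69) and S1 (4.796) also lay under it. Low levels may thus limit the differences of M1, OFC, DLPFC, V2, V1 and S1 too, which was not tested.

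M1 did not give one answer. There the deep layers exceeded the upper ones by 0.90 in female D and 1.12 in male C, while male A had -2.04, a value within the range of S1. In M1 layer 3 male A had 8.58 against 4.08 to 5.19 in the other animals, and M1 layer 5 was highest in female D (7.20). S1 was also divided, from -2.78 in male A and -2.13 in female E to -0.86 in female D and 0.39 in male C.

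Each area was then compared with the mean of the others. The ACG value was above the mean of the others by 1.58 (SE 0.36). The drop was smaller than elsewhere in M1 (1.97, SE 0.41, limma adjusted p = 0.0433) and larger in V2 (-1.59, SE 0.35, limma adjusted p = 0.0405). With no filter on low values neither was called (limma adjusted p 0.0530 and 0.0541). TE (-1.47, SE 0.35, limma adjusted p = 0.0945) and MT (-1.45, SE 0.41, limma adjusted p = 0.345) were not called. Of all genes, 0.0883% were called higher in the ACG contrast, 0.0196% in that of M1, and 0.0883% lower in that of V2.

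The calls of M1 and V2 lay near the threshold. In the limma fits that left out 1 animal, the M1 call was lost without female D, female E, male B or male C (differences 1.57, 1.99, 1.97 and 1.51, adjusted p 0.880, 0.180, 0.0704 and 0.279). The V2 call was lost without the same animals (differences -1.68, -1.66, -1.59 and -1.23, limma adjusted p 0.158, 0.357, 0.0615 and 0.207). Male B had no M1 or V2 arrays. The variation over all areas remained called in each of these fits. Without the DLPFC arrays of male B the M1 difference was 1.97 (limma adjusted p = 0.0527) and the range over areas 3.20 (limma adjusted p = 0.000179). Without the areas ACG and DLPFC the V2 difference was -1.35 (limma adjusted p = 0.339) and that of M1 2.27 (limma adjusted p = 0.0297). Without the M1 arrays of male A the M1 difference was 2.76 (limma adjusted p = 0.00552). That fit left only female D and male C in M1 and dropped the only M1 animal with a fall. Its smaller p therefore lends no support to the M1 call. Without the M1 arrays of male A and the S1 arrays of male C the range over areas was 4.09 (limma adjusted p = 2.08e-07). The S1 arrays of male C were left out for their MET level itself, so that range and its p lend no support to the call. Without the animal block the M1 contrast was 1.86 (limma adjusted p = 0.116) and was not called, nor was it within the narrow set (limma adjusted p = 0.468).

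**Figure D3:**
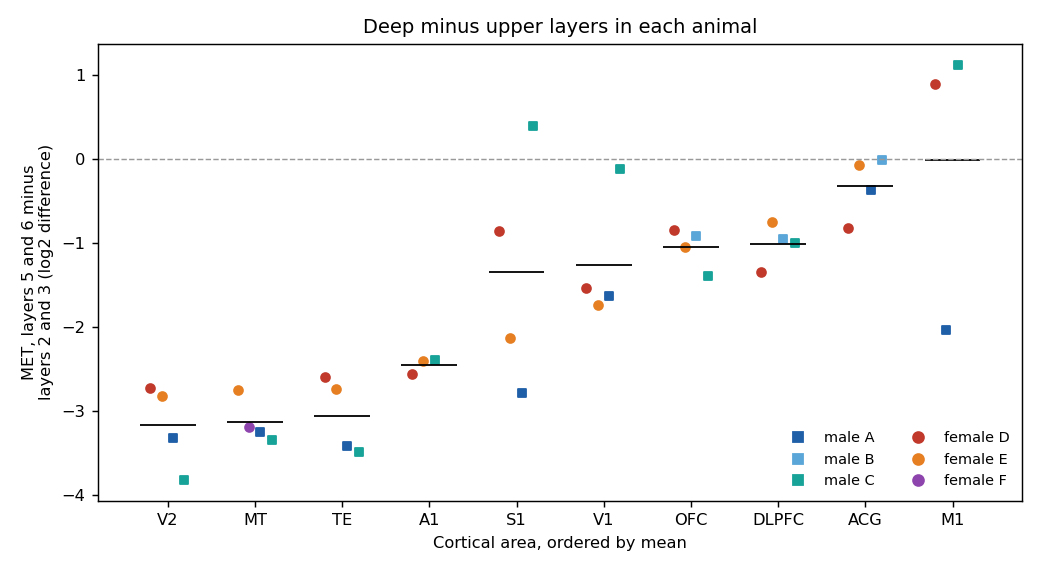
MET in layers 5 and 6 minus MET in layers 2 and 3 (log2 difference) for each animal, by area, with the mean as a line. V2, MT, TE and A1 lie between -3.82 and -2.40, ACG between -0.82 and -0.01, and the 3 animals of M1 split between -2.04 and 1.12.

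In V1 the level climbed from layer 2 to the divided layer 4 and then dropped. Means were 5.84 ± 0.77 in layer 2, 7.37 ± 1.01 in layer 3, 7.17 ± 1.51 in 4A, 9.44 ± 0.62 in 4B, 10.10 ± 0.12 in 4Ca, 10.27 ± 0.42 in 4Cb, 6.01 ± 1.18 in layer 5 and 4.69 ± 0.18 in layer 6 (n = 4 each). In 4 of 4 animals 4B, 4Ca and 4Cb each exceeded every other V1 layer, with 4Cb highest in both females and 4Ca in both males. Layer 6 was lowest in 3 of 4 animals, the exception being male A, with 4.28 in layer 5 and 4.82 in layer 6.

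The V1 layers differed (limma, moderated F, range 5.58, adjusted p = 1.26e-10), as did 14.9% of the 9976 genes tested there. The rise was at the border of 4A and 4B, where 4A had 5.87 in male A, 5.87 in male C, 8.23 in female D and 8.71 in female E, and 4B had 8.87, 8.96, 10.13 and 9.81. The arrays of these layers did not overlap, and 4B exceeded 4A in 4 of 4 animals by 2.27 (SE 0.43, limma adjusted p = 0.00403), a step called in this direction for 0.13% of genes. That step was not called without male C (2.00, limma adjusted p = 0.0562). The fall was at the border of 4Cb and layer 5 (4.26, SE 0.43, limma adjusted p = 2.6e-07), where the highest layer 5 array, 6.89, lay below the lowest 4Cb array, 9.79; 1.75% of genes were called higher in 4Cb.

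Within the upper part of V1 the steps were not called. Layer 3 exceeded layer 2 by 1.53 (SE 0.43, limma adjusted p = 0.0564) in 4 of 4 animals, 4A differed from layer 3 by 0.20 (SE 0.43) and 4Ca from 4B by 0.65 (SE 0.43). The gap between 4Ca and 4Cb was 0.18 (SE 0.43), smaller than the SD of 4Cb. Layer 5 exceeded layer 6 by 1.32 (SE 0.43, limma adjusted p = 0.116), in 3 of 4 animals. The second probe set had 3.89 ± 0.67 in 4A, 4.66 ± 0.24 in 4B, 5.50 ± 0.49 in 4Ca, 5.84 ± 0.38 in 4Cb and 3.84 ± 0.18 in layer 5, the same order of high layers. On that probe set the range was called (2.50, limma adjusted p = 1.98e-08), but the step from 4A to 4B was not (0.77, limma adjusted p = 0.124). Excitatory neuron markers in V1 averaged 9.06 in layer 6, 8.65 in 4Cb and 7.46 in 4Ca. They did not move alike: NEUROD6 was 8.30 in layer 6 and 4.87 in 4Ca, while NRGN was 10.51 and 10.83. Inhibitory neuron markers were 8.98 in 4Cb against 9.33 in 4A.

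The hippocampus showed a graded series. CA1 had 9.27 in female E, 9.56 in female D, 9.63 in male A and 9.77 in male C. CA2 had 7.88 in male A and 8.60 to 8.63 in the others, CA3 had 4.99 in male A, 5.25 in female E, 6.13 in female D and 6.60 in male C, and DG had 3.63 to 3.97. The fields did not overlap, and the order CA1, CA2, CA3, DG held in 4 of 4 animals.

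The fields differed (limma, moderated F, range 5.78, adjusted p = 2.9e-10), as did 19.2% of the 10235 genes tested. CA1 exceeded CA2 by 1.13 (SE 0.23, limma adjusted p = 0.00310), CA2 exceeded CA3 by 2.69 (SE 0.23, limma adjusted p = 3.2e-06) and CA3 exceeded DG by 1.96 (SE 0.23, limma adjusted p = 7.13e-06). The pairs further apart, CA1 with CA3, CA1 with DG and CA2 with DG, were called as well. No DG array lay above the median of all probe sets, so the differences against DG are lower bounds. The shares of genes called in these directions were 1.5%, 1.15% and 5.74% for the neighbouring fields and 2.16%, 4.84% and 6.03% for the others. Without male A the gap of CA1 and CA2 was 0.92 (limma adjusted p = 0.0115), below the fold threshold. The second probe set kept the order, at 4.84, 4.21, 3.27 and 3.10, and its range was called (1.73, limma adjusted p = 3.51e-07). Its gap of CA3 and DG was 0.17 (limma adjusted p = 0.369). Excitatory neuron markers were between 9.61 and 9.86 in the CA fields and 7.73 in DG, while oligodendrocyte markers were 8.12 in CA1, 10.27 in CA3 and 6.99 in DG, and their part in the MET series was not tested.

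In the LGN, MET lay near the floor of the arrays in every division. The koniocellular division had 3.65 to 3.93, the parvocellular 3.61 to 3.76 and the magnocellular 3.51 to 3.65. Its LGN mean of 3.68 was under the median of all probe sets there, so MET was not tested; 0.401% of the genes that were tested differed between divisions. On the arrays of the same 4 animals, the main thalamic target layers of V1, 4Ca and 4Cb, held the highest MET levels of the series.

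**Figure D4:**
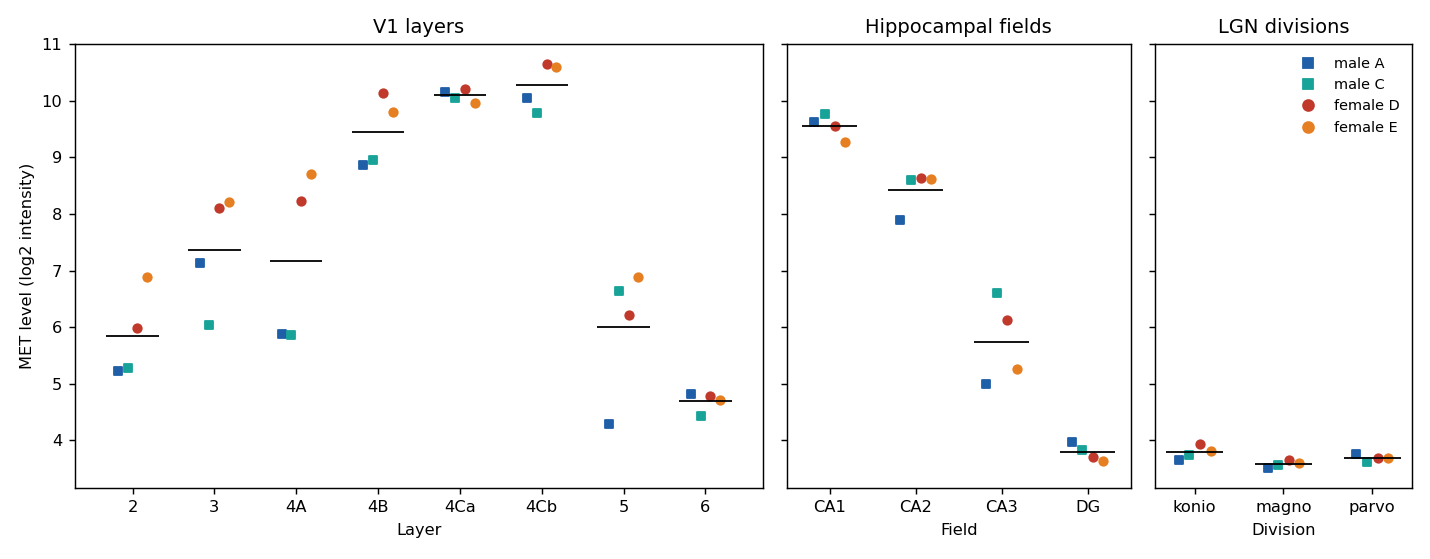
MET level (log2 intensity) on each array of the V1 layers, hippocampal fields and LGN divisions, with the mean as a line; all panels share the vertical axis. Layers 4B to 4Cb stand above the other V1 layers in 4 of 4 animals, the hippocampal fields step down from CA1 to DG without overlap, and the LGN arrays all lie between 3.51 and 3.93.

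Structures were compared with 1 mean per animal, over the groups that all 4 main animals had. The neocortex had 6.28 in male C, 6.59 in male A, 7.62 in female E and 7.70 in female D. The hippocampus had 7.20, 6.62, 6.69 and 7.0 in the same order, so the ranges of hippocampus and neocortex overlapped, and the LGN had 3.64 to 3.76. Both neocortex (3.37, SE 0.23, limma adjusted p = 1.51e-07) and hippocampus (3.20, SE 0.23, limma adjusted p = 1.6e-07) exceeded the LGN. The LGN level was near the floor of the arrays and MET passed the filter through the other structures, so these differences are lower bounds. Of 10186 genes 18.4% differed between structures, and 6.38% and 7.98% were called in these directions. Neocortex and hippocampus differed by 0.17 (SE 0.23, limma adjusted p = 0.570), and the sign of that gap turned without female E (-0.17) or without male A (-0.18), when the set of groups shared by all remaining animals also changed. The LGN step was not called on any of the dimmer probe sets.

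The females' mean levels lay above the males'. Over the 36 groups with all 4 animals, which include the hippocampal fields and the LGN divisions, female D had 7.29, female E 7.19, male A 6.35 and male C 6.16. The female mean was higher in 29 of 36 groups, both females lay above both males in 26, and both males above both females in 3. The difference, male minus female, was -0.99 (SE 0.09), but it was not called by limma (adjusted p = 0.448, unadjusted p = 0.00022). Of the 10186 genes tested for sex, 0 were called and 718 had an unadjusted p under 0.05, with 4 genes having a lower p than MET. With 2 animals of each sex, an exact permutation test cannot give a two-sided p below 0.333, and sex cannot be told apart from the individual animals.

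The other genes of the pathway spanned less over the groups than MET. Of 73 listed, 59 had a probe set of their own and 47 to 49 passed the filter in a given comparison. The group means of the 50 that passed in at least 1 comparison spanned 1.23 at the median, from 0.54 to 4.14, against 6.69 for MET. The lists were drawn up with results of these data known, and no list was tested as a set. Most genes named below were picked as called genes with the largest changes. Their p-values therefore describe these genes and are not independent support.

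The ligand itself could not be followed. HGF lay between 3.55 (A1 layer 4) and 4.44 (ACG layer 2) in all 57 group means, under the median of all probe sets, and was tested in none of the comparisons. Its regulators were measurable. ST14, the protease matriptase, spanned 4.14 between ACG layer 3 (9.63) and the magnocellular LGN (5.49), was lower in V1 (7.64 ± 0.31) than in the other areas (-1.06, SE 0.10, limma adjusted p = 6.1e-10), and in the hippocampus was lower in DG (7.34 ± 0.17) than in the CA fields (-1.40, SE 0.13, limma adjusted p = 4.07e-07). Its level in the LGN was 5.69 ± 0.22 against 8.20 ± 0.11 in neocortex (2.52, SE 0.09, limma adjusted p = 3.82e-10). SPINT2, an inhibitor of such proteases, was also lower in the LGN (8.85 ± 0.20) than in neocortex (9.89 ± 0.04; difference 1.04, SE 0.09, limma adjusted p = 7.45e-07).

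Among receptors and their partners, MST1R, the close relative of MET, stayed between 6.50 and 7.26 in all group means and was called in none of the comparisons. ITGA6, an integrin chain of the laminin receptor, was highest in layer 2 (7.73 ± 0.25), above the other layers by 1.26 (SE 0.10, limma adjusted p = 7.65e-09), and lowest in layer 4 (6.12 ± 0.18). Its areas ranged from 6.13 ± 0.50 in V1 to 7.22 ± 0.18 in TE, a difference that was not called without male A, where the range was 0.84. Of the 3 area calls (ST14, PIK3CA and ITGA6), 3 held within the narrow control set alone and 0 within the wide set alone. The areas named here for these genes, V1, TE, ACG and S1, all lie in the narrow set. The wide set therefore cannot show those differences. NRP1, a coreceptor of several growth factors, rose from 5.85 ± 0.53 in CA1 to 7.63 ± 0.19 in CA3 (-1.78, SE 0.26, limma adjusted p = 0.000178), opposite in direction to MET.

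Among adaptors, GAB2 rose layer by layer from 6.81 ± 0.08 in layer 2 to 8.41 ± 0.09 in layer 6, where it exceeded the other layers by 1.01 (SE 0.05, limma adjusted p = 7.28e-12). In V1 it ran from 6.79 ± 0.40 in layer 2 to 8.13 ± 0.76 in layer 5 (limma range 1.34, adjusted p = 6.85e-05), a call that was lost without the animal block (adjusted p = 0.0649). PIK3CA, a catalytic subunit of PI3 kinase, ranged from 7.05 ± 0.37 in ACG to 8.12 ± 0.29 in S1. PIK3R1, its regulatory subunit, was 11.02 ± 0.17 in neocortex and 9.33 ± 0.12 in the LGN (1.69, SE 0.09, limma adjusted p = 9.96e-09). Downstream, the kinase MAP2K1 was, within V1, lowest in layer 4Ca (10.80 ± 0.32) and highest in layer 2 (12.27 ± 0.31; limma range 1.46, adjusted p = 6.6e-08).

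Of the genes that end the signal, the ubiquitin ligase CBLB was lower in CA1 (6.42 ± 0.20) than in CA2 (7.83 ± 0.16; -1.41, SE 0.13, limma adjusted p = 4.83e-06), and its V1 range of 1.36 (limma adjusted p = 0.0438) was not called without female D, female E or male C (adjusted p 0.332, 0.430 and 0.147). SH3GL2, an endophilin of synaptic endocytosis, was lower in DG (8.97 ± 0.08) than in the CA fields (-1.25, SE 0.12, limma adjusted p = 4.58e-07). LRIG1, a membrane protein that restrains receptor kinases, was higher in the LGN (9.21 ± 0.11) than in the hippocampus (7.86 ± 0.15; -1.35, SE 0.08, limma adjusted p = 1.34e-08). The transcription factors of the list had 1 call in all, MITF in the structures.

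The shares of all genes called in the directions of the single contrasts above were 1.24% (layer 2 higher), 0.961% (layer 6 higher), 1.09% (V1 lower), 2.04% (CA1 under CA2), 2.48% (CA1 under CA3), 4.84% (DG lower) and 6.31% (hippocampus under the LGN). In counts, 2 of 49 list genes were called over layers (6.62% of all genes tested), 3 of 48 over areas (9.21%) and 0 of 48 for the deep minus upper difference by area, where 11 had an unadjusted p under 0.05. In V1, 3 of 48 were called, in the hippocampus 12 of 49 and between structures 7 of 47. In the LGN 0 of 47 and for sex 0 of 47 were called by limma, with 4 and 3 at an unadjusted p under 0.05. The shares for V1, structures and hippocampus stand beside 14.9%, 18.4% and 19.2% of all genes. The median range of the list genes was 0.29 over layers against 0.26 for all genes, 0.44 against 0.50 over areas and 0.53 against 0.50 in the hippocampus.

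**Figure D5:**
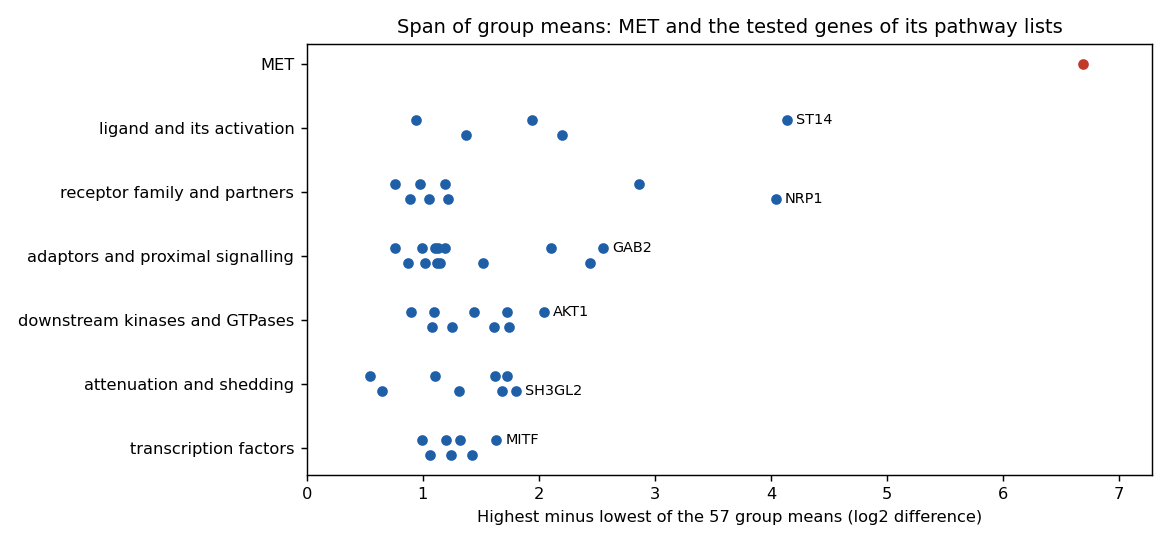
Each point is 1 gene, placed by the difference between its highest and lowest group mean over the 57 groups (log2 difference), in rows by role; the gene with the largest span of each list is named. MET spans 6.69, and the 50 genes of the lists span 0.54 to 4.14.

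The genes whose group means were most like those of MET were ORC5, an origin recognition subunit (r = 0.69), PRPS2, an enzyme of nucleotide synthesis (0.67), RSPO2, a secreted enhancer of WNT signalling (0.67), IFT122, a transport protein of cilia (0.66), BRINP1 (0.65), TMEM266 (0.64), FSTL1, a secreted follistatin-like protein (0.63), and NCOA3, a nuclear receptor coactivator (0.63). These Pearson coefficients are over 57 group means among 10216 genes, and the groups share animals and batches. RSPO2 and FSTL1 spanned 4.39 and 3.69, BRINP1 only 1.02. The most opposite were CD99, a cell surface protein (-0.74), the citrate synthase CS (-0.68), MRAP2, a melanocortin receptor accessory protein (-0.66), and the transcription factor ZFHX3 (-0.64). CD99 was highest in ACG layer 6 (8.40) and lowest in V1 layer 4Ca (5.67).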

How the data were processed

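Levels were measured on GeneChip Rhesus Macaque Genome arrays. The authors deposited log10 intensities made with RMA within each amplification batch and then scaled on whole brain controls common to the batches, per the file headers; they were multiplied to log2. RMA settles the scale between arrays, so an overall shift in RNA content is not visible. Array medians lay between 4.72 and 5.00, and the number of arrays limits the precision. Of 52865 probe sets, 24969 had 1 symbol in the platform annotation, and each gene was read from its brightest. Genes whose mean exceeded the median of all probe sets on the arrays compared were tested in limma 3.58.1 (R 4.3.3, data.table version 1.17.8), with animal as a fixed block and Benjamini-Hochberg adjustment over all tested genes. A call needed an adjusted p under 0.05 and a log2 difference or range of at least 1. Layers were averaged per animal over those of the 6 areas that had all of layers 2 to 6, in animals with at least 3 such areas. Areas were averaged over layers 2, 3, 5 and 6 in animals with all of these, and V1, hippocampus and LGN used single arrays. The fit was tested on simulated data. Arrays of 1 animal deviated together (median r 0.18 over 5367 pairs, against -0.05 over 19500 pairs of different animals), so animal pairs the groups.

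MET, the gene lists and the markers were chosen with earlier results of these data known. Named genes were MET through every probe set of its own, HGF, up to 4 called list genes with the largest change per comparison, and the 8 genes most and 4 least correlated with MET. MST1R was named after its values were seen, as was MITF. Alternatives were no filter, quantile normalization, no animal block, each animal left out, each other probe set and each control set. The 27 control arrays entered no comparison. Sequences and coordinates are not used here.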

Additional observations from a re-analysis of the deposited data

Results flagged for a closer look

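In hippocampal CA2, the array of male A was far below the others, at 7.88 against 8.60 to 8.63; it was the 1 group of 55 tested with such an array, and chance flags about 1 in 20 groups. Differences between areas were flagged for the deep minus upper contrast, where ACG (1.58) and M1 (1.97) lay above the mean of the other areas and V2 (-1.59) below it; the low level of ACG was among the reasons for choosing MET. Signal was also present on arrays outside the comparisons: control arrays labelled hippocampal CA3 had a MET level of 8.44 ± 0.16 (n = 9) and those labelled MT 8.38 ± 0.21 (n = 3), against 6.63 ± 0.18 in the whole brain pool (n = 15). The controls labelled CA3 went against their label: their mean profile was closest to S1 layer 4 (r = 0.99 over genes), hippocampal CA3 was 50th of 57 groups in that ranking, and MET in the experimental CA3 arrays was 5.74 ± 0.75. S1 layer 4 was also closest to the controls labelled MT (r = 0.99) and to the whole brain pool (r = 0.97). For both of these hippocampal CA3 was 51st.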

How the results depend on the processing

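No filter, quantile normalization and each animal left out changed the call of none of the ranges of MET over areas (deep minus upper), V1 layers, hippocampal fields and structures. Leaving out 1 animal moved these ranges from 2.55 to 4.11, 5.49 to 5.70, 5.72 to 5.82 and 3.20 to 3.28. Without the replicate block of animals the deep minus upper range was 3.16 and its call stayed, while the M1 contrast (1.86), and CBLB and GAB2 in V1, lost theirs. With no filter the M1 and V2 contrasts passed the threshold no longer (limma adjusted p 0.0530 and 0.0541). The gap of neocortex and hippocampus ran from -0.18 to 0.13 with 1 animal left out and turned without female E or male A. Over areas, 3 list genes were called in the narrow control set alone and 0 in the wide set alone, which lacks V1, TE, ACG and S1.

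The dim probe sets gave smaller values, and their low signal limits them; MmugDNA.34584.1.S1_at had a span over the 57 groups of 2.74, a layer 3 minus layer 6 difference of 1.09, a TE minus ACG difference of 0.84 and a range over structures of 0.55, not called. On MmugDNA.34586.1.S1_at the span was 1.16, layer 3 minus layer 6 0.33 and TE minus ACG 0.26, and the ranges, none of them called, were 0.53 (deep minus upper), 0.95 (V1), 0.75 (hippocampus) and 0.33 (structures), with 0.092 over the LGN and ACG deep minus upper turned to -0.00327. On MmugDNA.34586.1.S1_s_at the span was 1.33, layer 3 minus layer 6 0.16, TE minus ACG 0.49, deep minus upper 0.39 and the hippocampal range 0.37, neither called; the structures' range of 0.23 had the LGN highest, and V1 layer 2 minus 3 (0.35), neocortex minus LGN (-0.17) and hippocampus minus LGN (-0.23) turned. On MmugDNA.19034.1.S1_at the span was 1.04, layer 3 minus layer 6 0.10 and TE minus ACG 0.40, and the ranges not called were 0.36 (deep minus upper), 0.68 (V1) and 0.39 (hippocampus). There the structures (0.21), the sex difference (0.0232), ACG deep minus upper (-0.0689), V1 layer 2 minus 3 (0.68), CA2 minus CA3 (-0.0119), neocortex minus hippocampus (-0.0281), neocortex minus LGN (-0.21) and hippocampus minus LGN (-0.18) turned. The cause was not tested. The fits without the M1 arrays of male A, the S1 arrays of male C, the DLPFC arrays of male B or the areas ACG and DLPFC were added after seeing the data.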

Other observations

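The gap of the sexes was not the same size in each region, though its variation between regions was not tested. Male minus female, over groups with all 4 animals, was -2.44 in S1, -1.66 in A1, -1.32 in V2, -1.04 in V1 and -0.94 in TE. In M1 it was 0.44, in the hippocampus 0.06 and in the LGN -0.09. The M1 value rests on male A (6.20), whose arrays labelled M1 lay nearest to S1. Male C had 4.52 in M1, against 4.48 in female E and 5.37 in female D. In S1 male C had 4.03 and male A 5.98 against 7.37 in female E and 7.53 in female D. In V1 both males (7.05 and 7.13) lay below both females (8.04 and 8.22).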
